A study of Mus musculus with 18 samples.

Results

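The levels of 10 genes that encode transcription factors of the heart were followed across mouse hearts carrying different viral vectors. They were the homeobox genes Prox1, Irx3, Irx4, Irx5 and Nkx2-5, the zinc finger gene Gata4, the T-box genes Tbx5 and Tbx20, the basic helix-loop-helix gene Hand2, and the MADS-box gene Mef2c. All 10 were found by name among the 23457 genes of the count table and in the FPKM table, and all 10 passed the filter on low counts, which left 12281 genes for testing. Prox1 and Irx3 were chosen because their counts stood apart between PLC and control hearts in these same samples, so their contrasts are described here without a test. The other 8 genes were chosen for their known role in the heart, and were tested. Earlier results of these data were known when they were chosen.

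Cardiac transcription factors of the GATA, NK2, T-box, Hand and Mef2 families work as a network, in which the proteins bind to one another and to shared enhancers, and continue to be expressed in adult cardiomyocytes. Iroquois (Irx) factors pattern the ventricle, with Irx3 known for the fast-conducting Purkinje network, Irx4 for ventricular identity and Irx5 for the gradient of repolarising potassium current across the wall. Prox1 is best known as the factor that specifies lymphatic endothelium, and it is also needed in cardiomyocytes for the order of the sarcomere and the repression of fast skeletal muscle genes.

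The hearts came from male C57BL/6 mice of 17 weeks, 6 in each of 3 groups that differed in the vector injected into the tail vein of the adult mouse: rAAV6-PLCβ1b and rAAV6-PLCβ1a, each encoding a FLAG-tagged protein, and the control rAAV6-blank. PLCβ1b is a splice variant of phospholipase Cβ1 whose expression depresses contraction, PLCβ1a is the variant that is without this activity in heart, and the blank vector has a promoter but makes no protein. The promoter is not named in the sources used here. The sample labels give both ventricles as the tissue, whereas the methods of the study give the left ventricle. All groups carried virus, and no heart without virus was analysed here. Because RNA came from whole tissue, fewer cells of a type and less RNA per cell cannot be told apart.

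Bases before a listed start site are shown for 3 of the genes. These genes are Prox1 and Irx3, on which the choice rested, and Hand2, the gene with the widest spread within PLCβ1b hearts. Which start site these hearts use was not tested. Each stretch is the 250 bases before a RefSeq start site in GRCm38.p6, read 5′ to 3′ on the strand of the gene, and capitals mark matches to 6 short motifs. For Prox1 the first of its listed start sites was used, with the stretch at chr1:190170828-190171077 on the minus strand. That site lies 147 bases from the start of the deposited gene model.
Prox1: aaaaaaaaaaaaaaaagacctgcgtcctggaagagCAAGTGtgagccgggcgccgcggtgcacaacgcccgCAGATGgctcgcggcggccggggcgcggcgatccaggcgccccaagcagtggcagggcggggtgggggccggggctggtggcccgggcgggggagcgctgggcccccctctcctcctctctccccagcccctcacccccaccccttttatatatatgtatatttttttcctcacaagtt
Irx3: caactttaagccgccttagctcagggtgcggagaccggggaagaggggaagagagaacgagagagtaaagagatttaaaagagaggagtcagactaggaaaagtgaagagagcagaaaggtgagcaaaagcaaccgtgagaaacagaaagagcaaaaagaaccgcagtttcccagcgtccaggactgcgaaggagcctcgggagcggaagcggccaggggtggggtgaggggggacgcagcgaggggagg
Hand2: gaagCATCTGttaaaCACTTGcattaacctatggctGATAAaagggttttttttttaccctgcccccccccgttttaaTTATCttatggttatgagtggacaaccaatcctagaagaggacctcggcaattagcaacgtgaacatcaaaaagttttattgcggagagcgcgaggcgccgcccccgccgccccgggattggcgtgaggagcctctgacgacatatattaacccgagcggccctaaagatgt
The Irx3 stretch is chr8:91801655-91801904 on the minus strand and the Hand2 stretch is chr8:57320733-57320982 on the plus strand. Motifs were searched on both strands as GATAA for GATA factors, GGTGTGA for T-box factors, CAAGTG for Nkx2-5, ACANNTGT for Iroquois factors, CTA and TAG with 4 bases between them for Mef2 factors and CATCTG for a Hand2 E-box. CAAGTG and CATCTG are both forms of the E-box core CANNTG, and ACANNTGT contains that core, so these motifs are related.

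Hand2 held matches to 3 of the motifs, with GATAA at 2 places. Prox1 held CAAGTG, first base 215 before the start site, and the reverse complement of CATCTG at 179 before it. The stretch before its other listed start site, chr1:190169516-190169765, held none of the 6, so these matches depend on the start site used. Irx3 held none of the 6 in this stretch. Promoters were at hand for 7 of the 10 genes, in 10 stretches, and none was used for Irx5, Gata4 or Tbx5. CAAGTG was found in 11.6% of 32851 promoters of the table, CATCTG in 14.4%, GATAA in 22.6%, ACANNTGT in 6.31%, GGTGTGA in 3.33% and the Mef2 motif in 3.20%. GC content was 64.8% in the Prox1 stretch, 56% in the Irx3 stretch and 49.2% in the Hand2 stretch, against a median of 52.4% over all promoters.

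Library depth is set mainly by mitochondrial RNA. Total counts were 13246339 to 24155465 per heart, of which 67.07 to 71.85% came from mitochondrial genes, and 3908354 to 7591558 came from nuclear genes. Plcb1, the gene carried by the vectors, had a mean of 0.986 FPKM in rAAV6-blank hearts, 3.86 in rAAV6-PLCβ1a hearts and 8.28 in rAAV6-PLCβ1b hearts, and all 12 PLC hearts were above all 6 blank hearts. Gene totals do not tell the splice variants apart, so this check of the labels holds for PLC against blank vectors. The level of Plcb1 was 2.12-fold higher in PLCβ1b than in PLCβ1a hearts (edgeR, FDR = 0.00918), so Plcb1 RNA was not at equal levels. Protein was not measured here. The study blotted the FLAG-tagged proteins to check that they were expressed. Separately, citing earlier work, it describes PLCβ1a in mouse hearts as similar in level to PLCβ1b.

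The library of PLCβ1a heart 21 stood apart, since it held 395 reads of 7 fast skeletal muscle genes (Myh1, Myh2, Myh4, Pvalb, Atp2a1, Tnnt3 and Tnni2, chosen after their values were seen), against 5 to 31 in each of the other 17 hearts. They were 0.00665% of its nuclear counts. Without this heart the fold of PLCβ1a over blank was 1.203 for Prox1 and 1.36 for Irx3, and the PLCβ1b minus PLCβ1a difference of Irx3 was 0.0022 on the log2 scale. Of the 8 genes chosen by role, 7 were still positive in PLCβ1a hearts and 0 passed, with a lowest FDR of 0.448.

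Levels of the 10 transcription factors were compared between genes in FPKM, which divides by the length of the transcript. Tbx20, a repressor and activator that maintains adult myocardium, was the highest at a mean of 14.3 FPKM over 18 hearts. Gata4 at 10.4, Nkx2-5 at 9.82, Hand2 at 8.84 and Mef2c at 8.62 FPKM followed, then Prox1 at 6.94 and Irx4 at 4.63. The lowest were Irx3 at 2.69, Tbx5 at 2.35 and Irx5 at 1.23 FPKM. Of the 9 pairs of neighbours in this order, 3 had ranges that did not overlap across the 18 hearts: Tbx20 over Gata4, Irx4 over Irx3, and Tbx5 over Irx5. Compared within each heart, Prox1 was above Irx4 in 18 of 18 hearts and Mef2c above Prox1 in 17, although their ranges overlapped. Gata4 was above Nkx2-5 in 11 hearts, Nkx2-5 above Hand2 in 14, Hand2 above Mef2c in 9 and Irx3 above Tbx5 in 13. Counts divided by length gave the same order except that Hand2 and Mef2c changed places.

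**Figure D1:**
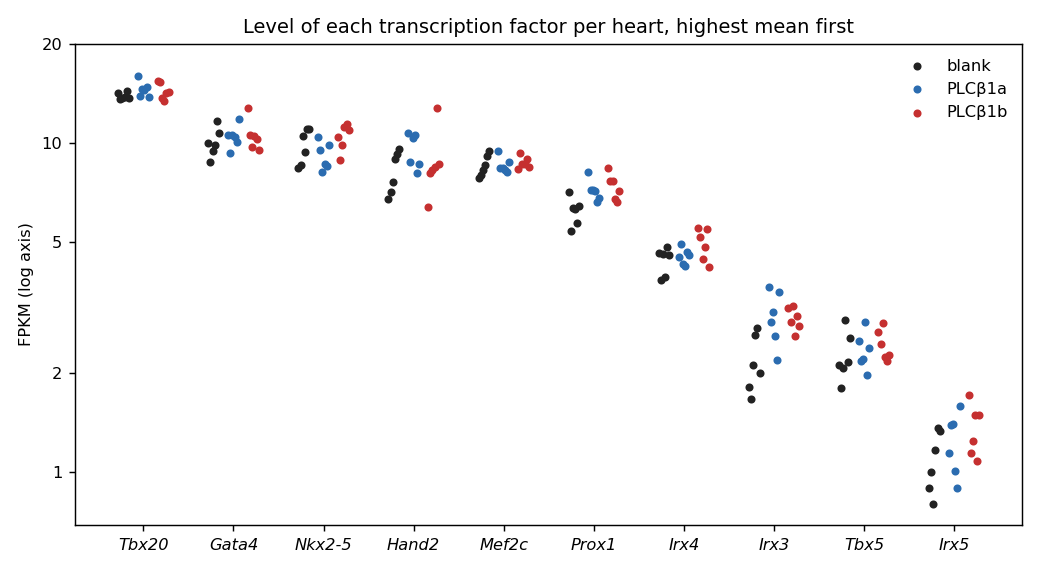
FPKM of each gene (log axis) in each of 18 hearts, in order of mean level and coloured by vector. Tbx20 lies above Gata4 in every heart, and the ranges of most neighbours overlap across hearts. Position within a group has no meaning.

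Prox1 gave 20.2, 22.9 and 27.6 CPM (counts relative to the library size, itself corrected by TMM) as the lowest, median and highest in blank hearts, 24.4, 27.2 and 29.7 in PLCβ1a hearts, and 26.2, 28.0 and 29.5 in PLCβ1b hearts. The groups overlapped, since blank heart 26 at 27.6 CPM was above 2 of the 6 PLCβ1b hearts and 4 of the 6 PLCβ1a hearts. In FPKM the means ± SD were 6.22 ± 0.590 for blank, 7.20 ± 0.533 for PLCβ1a and 7.39 ± 0.664 for PLCβ1b (n = 6 hearts each). The fold change was 1.22 (95% interval 1.11 to 1.33) for PLCβ1b over blank and 1.18 (1.08 to 1.29) for PLCβ1a over blank. These values chose the gene and carry no test. Prox1 lies on chromosome 1 (mm10, 190121777 to 190170680, minus strand), and the deposited gene model ends 3742 bases short of the 3′ end in GENCODE, so reads from that stretch were not counted.

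Irx3 gave 3.40, 3.90 and 4.86 CPM as the lowest, median and highest in blank hearts, 4.48, 5.73 and 6.73 in PLCβ1a hearts, and 5.04, 5.59 and 6.05 in PLCβ1b hearts. All 6 PLCβ1b hearts were above all blank hearts in CPM, and 4 of 6 PLCβ1a hearts were. On FPKM 5 of 6 PLCβ1b hearts were above all blank hearts, so the separation depends on the unit. A group of PLCβ1b hearts lying wholly above blank hearts was found for 0.269% of the 12281 genes, and the contrast is one that chose Irx3. The fold change was 1.37 (95% interval 1.17 to 1.59) for PLCβ1b over blank and 1.40 (1.21 to 1.64) for PLCβ1a over blank, with no test. The gene lies on chromosome 8 (91798511 to 91801654, minus strand), 556141 bases from Irx5.

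**Figure D2:**
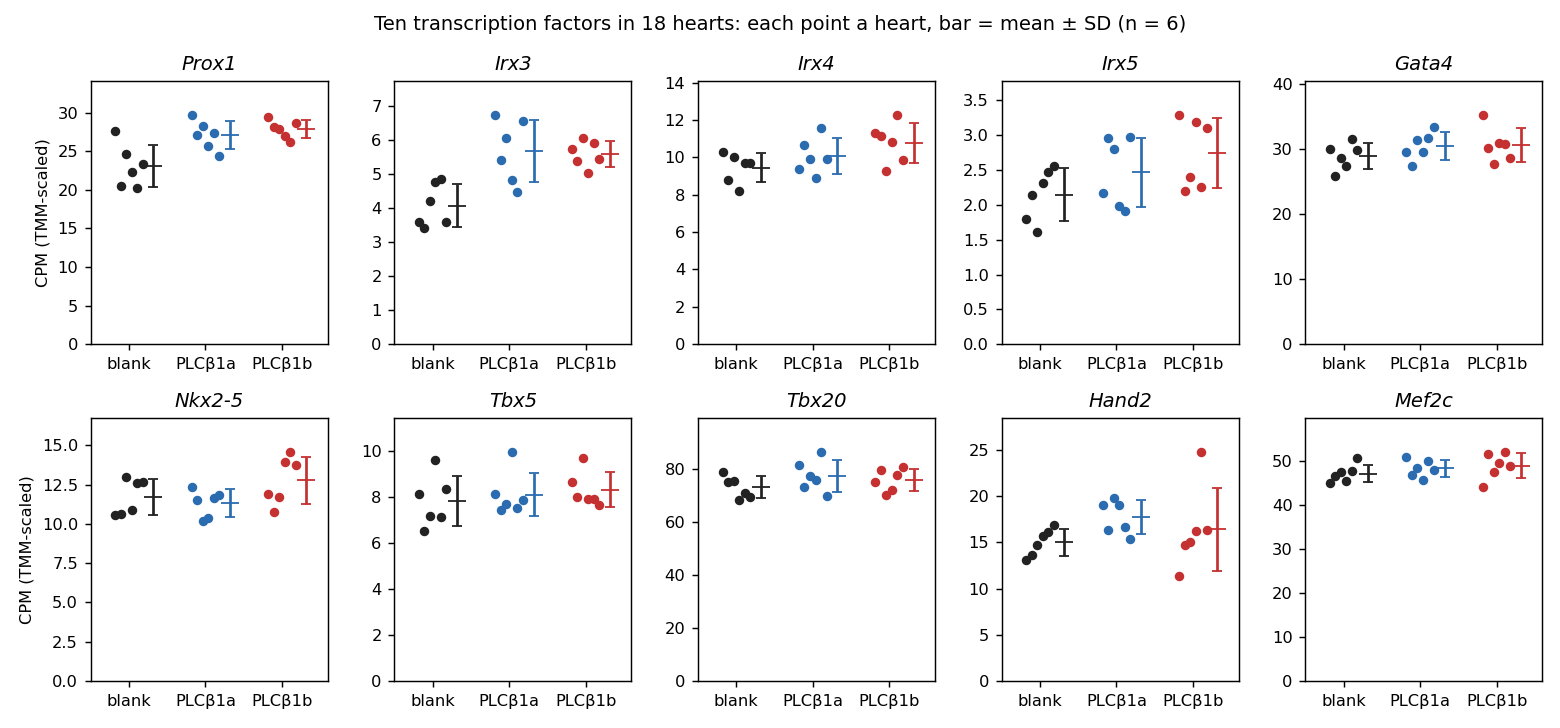
CPM of each gene in each heart by vector, with mean ± SD (n = 6). For Irx3, all PLCβ1b hearts lie above all blank hearts, and the groups overlap for the other genes. Position within a group has no meaning.

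Values of both genes overlapped between PLCβ1b and PLCβ1a hearts. The difference of PLCβ1b minus PLCβ1a on the log2 scale was 0.04 (95% interval -0.08 to 0.17) for Prox1 and -0.04 (-0.25 to 0.17) for Irx3. As a ratio of PLCβ1b to PLCβ1a these intervals are 0.944 to 1.13 for Prox1 and 0.842 to 1.12 for Irx3. The hearts are those of the contrasts that chose the genes, and both contrasts with blank share the blank hearts.

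The other Iroquois genes were tested. Irx4, which marks ventricular muscle, had 8.21, 9.69 and 10.3 CPM as the lowest, median and highest in blank hearts and 9.25, 10.98 and 12.2 in PLCβ1b hearts, of which 4 were above all blank hearts. Its log2 difference was 0.19 ± 0.076 (SE) with an FDR of 0.580 in PLCβ1b hearts (edgeR) and 0.09 ± 0.077 with an FDR of 0.786 in PLCβ1a hearts. Irx5 had 1.61, 2.22 and 2.56 CPM in blank hearts and 2.20, 2.75 and 3.28 in PLCβ1b hearts, with 3 above all blank hearts. Its log2 difference was 0.32 ± 0.148 with an FDR of 0.651 (edgeR). The values of Irx5 came from a mean of 46 reads per heart, the lowest of the 10 genes, and the interval of its fold ran from 1.01 to 1.54. The deposited model of Irx5 ends 14830 bases short of its 3′ end in GENCODE, and whether this bears on its reads was not tested.

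Neither gene passed the threshold of FDR below 0.1. In PLCβ1b against blank hearts, 0 of the 8 genes chosen by role passed, against 0.0977% of all genes (12 of 12281), and 2 of the 8, Irx4 and Irx5, had an unadjusted p under 0.05, against 7.43% of all genes. In PLCβ1a against blank hearts 0 of 8 passed (0.0814% of all genes) and 0 had an unadjusted p under 0.05 (8.81% of all genes). The count of these 8 that passed was 0 also with DESeq2, with the exact test of edgeR and with limma on FPKM. The closest annotated neighbour, 4933436C20Rik, lies 1676 bases from Irx5 on the other strand and had a log2 difference of -0.03 in PLCβ1b hearts (FDR = 0.990) and -0.19 in PLCβ1a hearts (FDR = 0.863).

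Of the core network, Gata4, Tbx20, Mef2c and Tbx5 did not pass the test in either contrast with blank. Gata4, a pioneer factor for cardiac genes, had mean ± SD values of 10.1 ± 1.02, 10.5 ± 0.825 and 10.6 ± 1.17 FPKM in blank, PLCβ1a and PLCβ1b hearts. Tbx20 had 13.9 ± 0.319, 14.6 ± 0.784 and 14.4 ± 0.815 FPKM, and 4 of 6 PLCβ1a hearts were above all blank hearts in FPKM (2 of 6 in CPM). Mef2c, which activates sarcomere genes, had 8.55 ± 0.632, 8.59 ± 0.482 and 8.73 ± 0.354 FPKM. In CPM it had the lowest coefficient of variation of the 10 genes over the 18 hearts, 4.81%. In FPKM the lowest was that of Tbx20, 4.93%, against 5.55% for Mef2c. Tbx5, known for its role in chamber and conduction development, had 2.27 ± 0.389, 2.35 ± 0.308 and 2.44 ± 0.265 FPKM. The log2 differences from blank hearts for these 4 genes were between 0.03 and 0.08 in both contrasts, none with an FDR under 0.654.

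Hand2, a factor of second heart field and autonomic development, had the widest spread of the 10 genes within PLCβ1b hearts. Its values were 13.1, 15.2 and 16.9 CPM as the lowest, median and highest in blank hearts, 15.4, 17.9 and 19.8 in PLCβ1a hearts, and 11.4, 15.6 and 24.8 in PLCβ1b hearts. PLCβ1b heart 16 was the highest of all, and PLCβ1b heart 4 the lowest. The log2 difference was 0.23 ± 0.116 (SE) with an FDR of 0.585 in PLCβ1a hearts and 0.10 ± 0.117 with an FDR of 0.873 in PLCβ1b hearts (edgeR). Without PLCβ1b heart 16 the difference in PLCβ1b hearts was -0.05. The coefficient of variation in PLCβ1b hearts was 27.3%, against 9.80% in blank hearts and 10.3% in PLCβ1a hearts.

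Nkx2-5, the homeobox factor that partners with Gata4 and Tbx5, was the single gene of the 10 with a negative difference from blank, -0.05 ± 0.079 (SE) in PLCβ1a hearts. In PLCβ1b hearts it was 0.11 ± 0.078. The lowest, median and highest values were 10.1, 11.6 and 12.3 CPM in PLCβ1a hearts and 10.8, 12.8 and 14.6 in PLCβ1b hearts, with 3 PLCβ1b hearts above all PLCβ1a hearts. Its difference between PLCβ1b and PLCβ1a hearts, 0.17 ± 0.078, was the largest of the 10 in that contrast, and did not pass adjustment (edgeR, unadjusted p = 0.0437, FDR = 0.99994). Of the 8 genes 0 passed in this contrast, where 0.00814% of all genes did, and 1 had an unadjusted p under 0.05, against 4.56% of all genes.

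**Figure D3:**
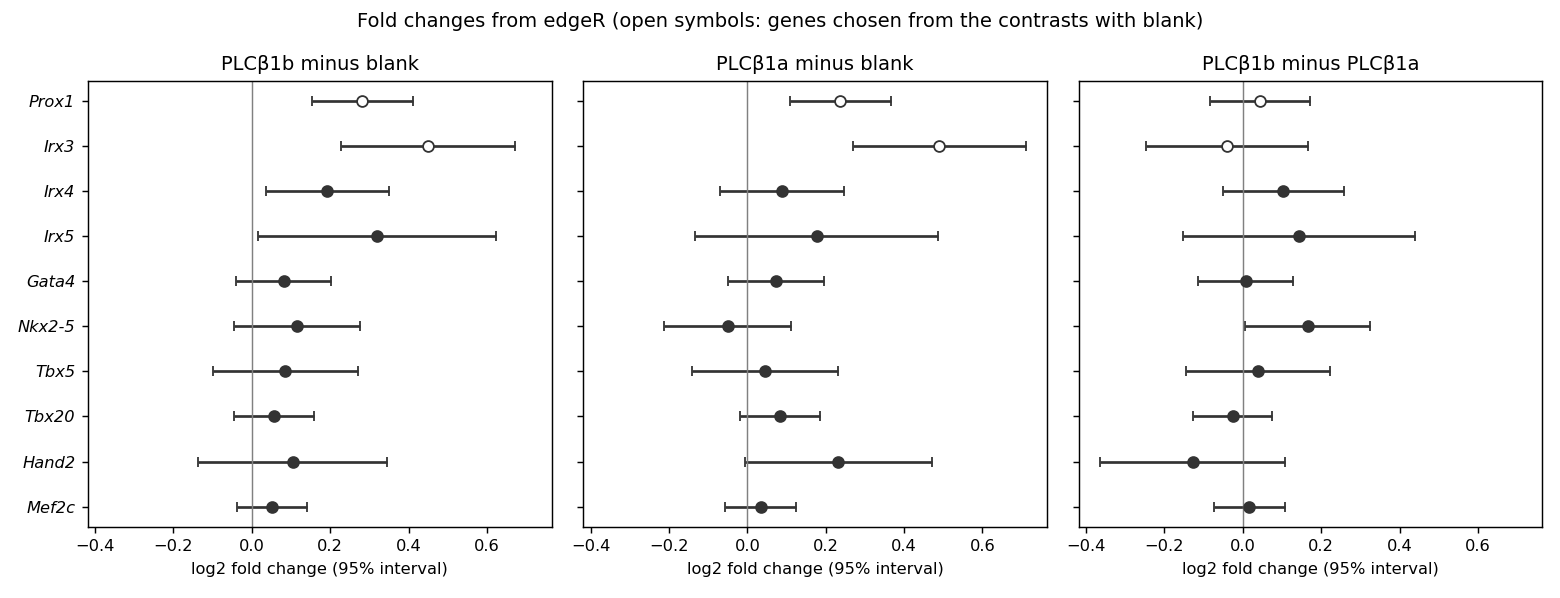
Log2 fold change of each gene with its 95% interval (edgeR, n = 6 hearts per group) in 3 contrasts. Open symbols are Prox1 and Irx3, chosen from the contrasts with blank, and filled symbols are the 8 genes chosen by role, of which Irx4 and Irx5 in PLCβ1b minus blank, and Nkx2-5 in PLCβ1b minus PLCβ1a, have intervals above 0.

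Of the 8 genes chosen by role, 8 had a positive difference from blank in PLCβ1b hearts and 7 in PLCβ1a hearts, whereas 49.6% and 49.4% of all genes were positive. Both contrasts use the same blank hearts, so these counts are not independent of each other. The 8 genes were also read in the same hearts, so they are not independent observations. Without PLCβ1b heart 16, Hand2 was negative in PLCβ1b hearts. Without blank heart 30 or PLCβ1a heart 13, Tbx5 was negative in PLCβ1a hearts. The median log2 difference of the 8 genes chosen by role was 0.09 in PLCβ1b and 0.08 in PLCβ1a hearts, and the median of all genes tested was 0.00 in both. The largest upper bound among those 8 was 1.54-fold for PLCβ1b and 1.40-fold for PLCβ1a. For 3 of the 8 in PLCβ1b hearts and 6 of the 8 in PLCβ1a hearts the interval lay within a 1.2-fold change in either direction.

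Whether the 10 genes varied together between hearts was asked of values centred on the mean of each group. Of 45 pairs, 25 correlations were positive, with a median Pearson r of 0.02, and 0 passed at an adjusted p of 0.05 (6 had an unadjusted p under 0.05). The highest was Hand2 with Mef2c, r = 0.625 (rho = 0.558, permutation p = 0.00568, adjusted p = 0.225, n = 18), which fell to 0.295 without the 2 hearts farthest from the median Hand2 level. The lowest was Irx5 with Tbx20, r = -0.598 (rho = -0.610, permutation p = 0.00999, adjusted p = 0.225), and -0.127 on FPKM. Irx3 and Irx5, which lie in the same Iroquois cluster, gave r = 0.254 (rho = 0.243, permutation p = 0.307, adjusted p = 0.777).

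**Figure D4:**
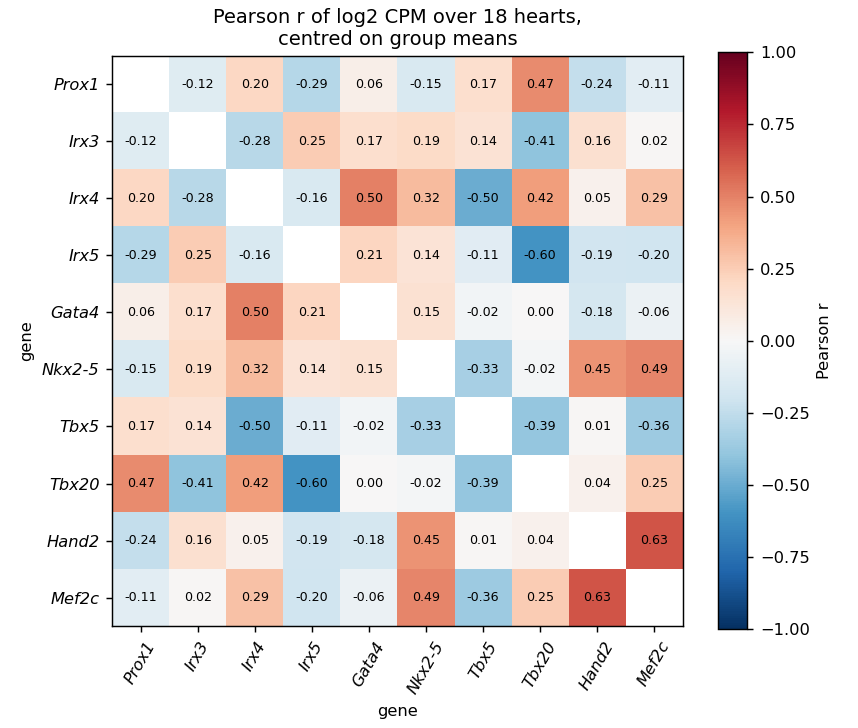
Pearson r of log2 CPM between each pair of genes over 18 hearts, with group means removed. Red is positive and blue negative, and the values run from -0.60 for Irx5 with Tbx20 to 0.63 for Hand2 with Mef2c.

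The level of Plcb1 RNA differed between hearts of a group, at 23.2 to 70.0 CPM under rAAV6-PLCβ1b and at 17.8 to 29.3 CPM under rAAV6-PLCβ1a. Over 20 relations of a gene with Plcb1 within a PLC group, r ran from -0.747 for Prox1 in PLCβ1a hearts to 0.751 for Gata4 in PLCβ1b hearts. None had an exact permutation p under 0.05 (720 arrangements of 6 hearts), and the lowest adjusted p was 0.528. The value for Prox1 was 0.947, of the opposite sign, without the 2 hearts farthest from the median, and that for Gata4 was 0.06. With 6 hearts a group, such relations were not resolved.

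Tbx20 followed the mitochondrial share of the counts. Its centred log2 CPM gave r = 0.762 with the share (rho = 0.746, permutation p = 0.000190, adjusted p = 0.00380 over 20 relations, n = 18), and 0.722 once the 2 hearts with the most extreme share were left out. Leaving out any 1 heart gave 0.682 to 0.803. Within groups r was 0.677 for blank, 0.929 for PLCβ1a and 0.635 for PLCβ1b. On FPKM it was 0.0708, so the relation was seen in counts alone, and Tbx20 was also the gene for which counts and FPKM followed each other least (r = 0.548 over the 18 hearts). Of all genes tested, 0.277% had an r at least as high. The deposited model of Tbx20 ends 2674 bases short of its 3′ end in GENCODE, and whether this bears on the relation was not tested. The 20 relations took each gene with the share and with depth, given as log2 nuclear counts. For the other 19 relations the adjusted p was at least 0.135. Irx3 gave r = -0.380 with the share (rho = -0.340, permutation p = 0.118, adjusted p = 0.263), and -0.542 on FPKM. With depth Irx3 gave r = 0.512 (rho = 0.501, permutation p = 0.0302, adjusted p = 0.135), and 0.652 on FPKM.

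**Figure D5:**
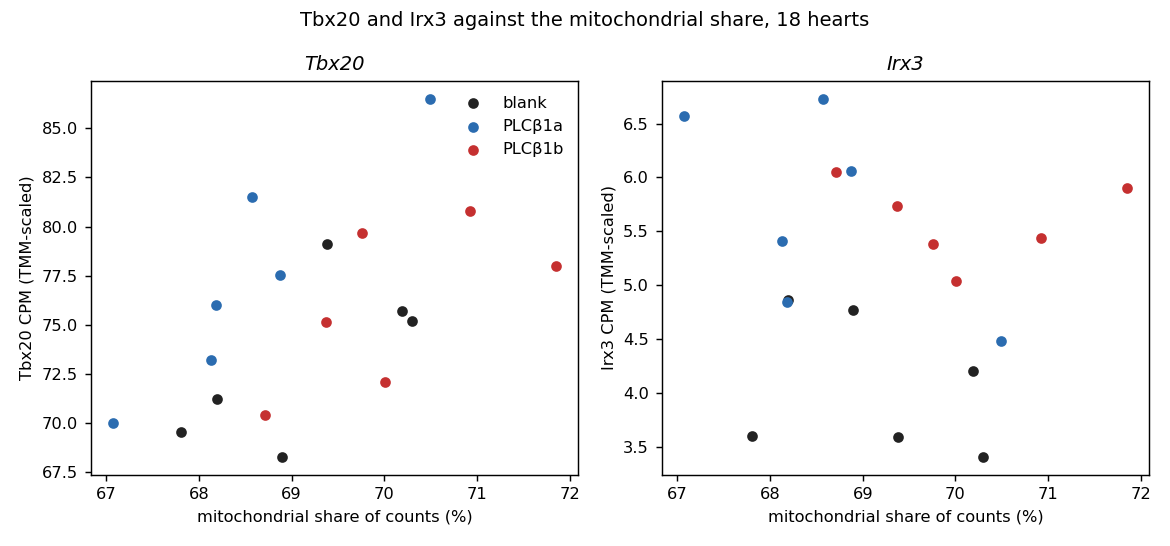
CPM of Tbx20 and of Irx3 against the percentage of counts from mitochondrial genes in 18 hearts, coloured by vector. Tbx20 is higher in hearts with a larger share in all 3 groups, and Irx3 gives r = -0.380 over the 18 hearts.

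Other transcription factors and cofactors of the heart were read from a list of 47, of which 38 were tested. None passed in either contrast with blank, 25 were positive in PLCβ1b and 26 in PLCβ1a hearts, and the median log2 differences were 0.04 and 0.06. At an unadjusted p under 0.05, 5 were higher and 1 lower in PLCβ1b hearts, and 3 were higher in PLCβ1a hearts, where 7.43% and 8.81% of all genes had such a p in either direction. Of all genes, 49.6% and 49.4% were positive. Tbx2, a T-box repressor of chamber genes, came nearest, at 1.01 ± 0.0906 FPKM in PLCβ1b and 0.762 ± 0.191 in blank hearts (log2 difference 0.45 ± 0.122 SE, edgeR FDR = 0.271). Hey1, a Notch target, had a log2 difference of -0.26 ± 0.104 in PLCβ1b hearts (FDR = 0.581). In PLCβ1a hearts Zfpm2, the cofactor of Gata4 also called FOG2, had 0.23 ± 0.0748 (FDR = 0.335) and Mef2d had 0.16 ± 0.0531 (FDR = 0.353).

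Reported targets of these factors showed no call either. Of 22 listed, 19 were tested, 8 were positive in PLCβ1b and 11 in PLCβ1a hearts, and the medians were -0.01 and 0.01. At an unadjusted p under 0.05, 1 was higher and 2 lower in PLCβ1b hearts and 3 were lower in PLCβ1a hearts, against 7.43% and 8.81% of all genes in either direction. Casq2, the calcium buffer of the sarcoplasmic reticulum, had a log2 difference of -0.09 ± 0.0387 (SE) in PLCβ1b hearts (FDR = 0.615) and the connexin gene Gja1 had 0.12 ± 0.0542 (FDR = 0.632). In PLCβ1a hearts Actc1, cardiac actin, had -0.12 ± 0.0486 (FDR = 0.473) and Nppb, the natriuretic peptide gene, had -0.49 ± 0.205 (FDR = 0.480). Tnnt3 and Tnni2, the fast skeletal troponins that Prox1 is known to repress, were below the filter, and PLCβ1a heart 21 held the most reads of any heart, 47 of Tnnt3 and 37 of Tnni2.

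Marker lists gave the makeup of the tissue beside these results, and 0 genes of any list passed in any contrast. Ventricular myocyte markers, all 9 of which were tested, summed to 51062 to 55222 CPM in blank, 51243 to 56299 in PLCβ1a and 50895 to 53457 in PLCβ1b hearts. Atrial markers summed to 50.4 to 64.8 CPM, 33.7 to 75.9 and 44.2 to 61.9 CPM in the same order. Sarcolipin (Sln), a gene of atrial muscle, had the lowest p of that list in PLCβ1b hearts, with a log2 difference of -0.62 ± 0.309 (FDR = 0.683), and Nr2f1, an orphan receptor of atrial identity, had 0.51 ± 0.261 (FDR = 0.691).

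Because Prox1 marks lymphatic endothelium and Irx3 the Purkinje network, the lists of those cells stand beside them. Of 8 lymphatic genes 7 were tested. Ccl21a had no read in the count table but a mean of 5.49 FPKM, so that its 0 is no sign of absence. The list summed to 39.0 to 47.1 CPM in blank, 40.6 to 43.9 in PLCβ1a and 37.5 to 45.5 in PLCβ1b hearts. Lyve1, a hyaluronan receptor of lymphatic vessels and macrophages, had log2 differences of -0.26 ± 0.120 (PLCβ1b, FDR = 0.652) and -0.25 ± 0.120 (PLCβ1a, FDR = 0.548). Reln, a secreted matrix protein, had a positive difference of 0.12 ± 0.0843 in PLCβ1b hearts (FDR = 0.794), as did Mmrn1, multimerin, of 0.17 ± 0.0829 in PLCβ1a hearts (FDR = 0.577). Conduction genes summed to 14.8 to 20.7, 14.4 to 17.7 and 15.95 to 18.6 CPM, with Isl1 at 0 and 7 of 9 tested. Gja5, the connexin of the Purkinje fibres, had differences of -0.18 ± 0.127 in both contrasts, with FDR of 0.790 (PLCβ1b) and 0.723 (PLCβ1a). The part of cell makeup in the Prox1 and Irx3 values was not tested.

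Endothelial genes summed to 331 to 407, 336 to 377 and 338 to 385 CPM in blank, PLCβ1a and PLCβ1b hearts. Fibroblast genes summed to 415 to 477, 430 to 492.6 and 445 to 492.7 CPM. Their median log2 difference was 0.11 in PLCβ1b and 0.06 in PLCβ1a hearts. Of the 8 tested, 7 were positive in PLCβ1b and 6 in PLCβ1a hearts, and the rest were negative. Lum, a collagen-binding proteoglycan, had 0.23 ± 0.0672 (FDR = 0.354) in PLCβ1b and 0.23 ± 0.0673 (FDR = 0.292) in PLCβ1a hearts. Epicardial genes summed to at most 10.1 CPM in any heart, with 4 of 5 tested. Skeletal muscle genes had 7 of 8 below the filter, with the reads of PLCβ1a heart 21 given above, and Acta1, which heart also expresses, had 0.11 ± 0.162 in PLCβ1b (FDR = 0.908) and 0.12 ± 0.162 in PLCβ1a hearts (FDR = 0.882). Of the 6 blood genes 4 were in the count table. Hba-a1 and Hba-a2 had no read there but means of 175 and 181 FPKM, so that these zeros are no sign of absence. Alas2, the enzyme of haem synthesis in red cells, had a log2 difference of 0.63 ± 0.162 in PLCβ1a hearts (FDR = 0.186).

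Genes whose centred values were most like Prox1 over the 18 hearts, among 9060 genes with a mean count of at least 50, were Arhgap21 (r = 0.834), Tagln (0.788) and Notch2 (0.785). For Irx3 they were Akt2 (0.782), Slc30a7 (0.781) and Syne3 (0.756). These are the highest of 9060 values for each gene and are given as a description. Their differences from blank hearts were between -0.03 and 0.14 on the log2 scale, with no FDR under 0.741.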

How the data were processed

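Ribosomal RNA was removed before libraries were made for paired-end, stranded sequencing. Reads were placed on mm10 by the authors with TopHat2 2.0.10 and Bowtie2, and HTSeq gave gene totals. The authors deposited these as raw counts, 1 column per heart. The deposited FPKM values came from the authors too, by a program not given in the paper (Cufflinks 2.1 is among the tools in the submitters' processing notes). A deposited gene model file gave positions. The 6 hearts of each group are separate mice.

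Counts were tested here with edgeR 4.0.16 (R 4.3.3): TMM scaling, filterByExpr (minimum count 10, total 15), quasi-likelihood F test with default settings in 1 model of 3 groups, and Benjamini-Hochberg adjustment over 12281 genes. A gene was called at FDR below 0.1. SE is the log2 difference over the root of F. CPM are TMM-scaled, and log2 CPM had 2 as prior count. Correlations used 100000 permutations, two-sided, or all 720 pairings within a group of 6, two-sided. Scripts were tested on simulated data.

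Genes were named by rule: the 10 genes, Plcb1, annotated neighbours within 5 kb, the 2 genes of lowest p per list and contrast with blank, and the 3 genes most like Prox1 and Irx3. Some listed genes are named for their level alone. A result that this rule would name is not reported here. The 10 genes and the lists were chosen with earlier results of these data known. Alternatives were RLE and upper-quartile scaling, mitochondrial genes left out, DESeq2 1.42.0, the edgeR exact test, no filter, only the 2 groups compared, limma 3.58.1 on log2(FPKM + 0.1) and log2(FPKM + 1), FDR below 0.05, each heart left out and, added after seeing the data, robust dispersions.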

Additional observations from a re-analysis of the deposited data

Results flagged for a closer look

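Of 30 sets of 6 hearts (10 genes in 3 groups), 1 had a heart far from the others in log2 CPM and 2 in CPM. Tbx5 in PLCβ1a heart 13 was 9.95 CPM, against 7.45 to 8.14 in the other 5 PLCβ1a hearts, a gap of 0.696 of the range of that group in log2 CPM and 0.725 in CPM (critical value 0.625). In FPKM that heart gave 2.86, against 1.98 to 2.50. Hand2 in PLCβ1b heart 16 was 24.8 CPM, against 11.4 to 16.3 in the other 5 PLCβ1b hearts, a gap of 0.633 of the range in CPM, and it was below the critical value in log2 CPM. In FPKM it gave 12.8, against 6.41 to 8.63. Chance marks about 1 in 20 groups.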

How the results depend on the processing

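Of 30 differences (10 genes in 3 contrasts), 840 values were recomputed under 28 settings: 810 kept their direction and side of the threshold, 18 newly passed it, 0 fell below it and 12 changed sign. Prox1 and Irx3 were chosen from these contrasts, so whether they passed is a description of the settings and no test of them. The cause of the differences between settings was not tested. In PLCβ1b hearts 0 of the 10 genes passed as reported, 1 with robust dispersions (Prox1), 1 with DESeq2 (Prox1), and 2 with the exact test and with no filter (Prox1 and Irx3). In PLCβ1a hearts the counts were 0 as reported and 1 with each of those settings (Irx3). Both were 0 under the other scalings, without mitochondrial genes, with only the 2 groups, with limma and at FDR below 0.05. Leaving out 1 heart gave 0 to 1 in PLCβ1b hearts (1 without blank heart 26 or PLCβ1a heart 7, Prox1) and 0 to 1 in PLCβ1a hearts (Prox1 without blank heart 26, Irx3 without blank heart 33, PLCβ1a heart 13 or 14, or PLCβ1b heart 8 or 16). The 8 genes chosen by role stayed at 0 in all of these.

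Other cardiac transcription factors passing in PLCβ1b hearts ranged from 0 to 1 when a heart was left out (1 without blank heart 36), and pairs of genes with an adjusted p under 0.05 from 0 to 2 (2 without PLCβ1b heart 6). All genes passing in PLCβ1b against blank hearts numbered 12 as reported, 22 with DESeq2 or the exact test, 26 with no filter, 6 with only the 2 groups and 5 with limma. In PLCβ1a against blank hearts they numbered 10, and 17 with robust dispersions, 28 with DESeq2, 45 with the exact test, 32 with no filter, 6 with only the 2 groups and 5 with limma. Leaving out a heart gave 4 to 17 and 2 to 20.

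The changes of sign all came from leaving out a heart. The ranges for PLCβ1b minus PLCβ1a were -0.0871 to 0.0202 for Irx3, -0.0394 to 0.0367 for Gata4, -0.0115 to 0.105 for Tbx5, -0.0531 to 0.00627 for Tbx20 and -0.00298 to 0.0459 for Mef2c. They were -0.0203 to 0.117 for Tbx5 in PLCβ1a against blank hearts and -0.0454 to 0.196 for Hand2 in PLCβ1b against blank hearts. No paired analysis was possible because the mouse numbers of the groups do not overlap. Depth limits Irx5 and Irx3 most, at means of 46 and 95.9 reads per heart.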
